A study of Rattus norvegicus with 8 samples.

Results

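The miR-193 and miR-365 precursors gave 6 mature miRNAs in the count table, namely both arms of miR-365 (rno-miR-365-5p and rno-miR-365-3p), miR-193a (rno-miR-193a-5p and rno-miR-193a-3p) and miR-193b (rno-miR-193b-5p and rno-miR-193b-3p), out of 752 miRNAs in all. They were chosen by the METH against saline values of miR-365-5p, which had the smallest p among miRNAs higher in METH once the miR-200 family and the cluster of miR-183 were set aside. Its other arm and its genomic partners were added by name, to see whether they follow it. The change of miR-365-5p between the groups is therefore a description here and carries no test, and the partners' changes in the same contrast are given in the same way. All 6 passed the low-count filter, which kept 507 miRNAs.

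Small RNA was sequenced from the striatum, the forebrain region that receives dense dopamine input. The saline group held 4 wild-type male Sprague-Dawley rats that pressed a lever for saline infusions, and the METH group held 4 that pressed it for methamphetamine (METH), after the same catheter surgery. Each rat gave 1 library, and the study's methods describe selecting rats by food training and then by steady lever pressing, so the groups do not stand for every rat that was trained. Ages were not used here. Rats are numbered 1 to 4 within each group.

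A miRNA precursor is a hairpin that is cut into a 5p arm and a 3p arm. Usually 1 arm, the guide, is loaded onto an Argonaute protein and pairs with target mRNAs through its seed, bases 2 to 8, whereas the other, the passenger, is mostly degraded. The arms of 1 hairpin come from the same transcript but can differ in stability. The miR-193b and miR-365 pair is known chiefly from brown fat and muscle cell differentiation, and miR-365-3p and the 3p arms of miR-193 are taken as the guides.

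The mature sequences are shown because they define which members can act alike and which can share reads. They were taken from RefSeq on the rat assembly GRCr8, matched for 6 of 6 members, and are written 5′ to 3′ with the seed in capitals.
miR-365-5p: gAGGGACUuucaggggc
miR-365-3p: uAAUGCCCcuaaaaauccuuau
miR-193a-5p: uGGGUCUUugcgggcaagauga
miR-193a-3p: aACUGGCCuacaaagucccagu
miR-193b-5p: gGGGUUUUgagggcgaga
miR-193b-3p: aACUGGCCcacaaaguccc

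The 3p arms of miR-193a and miR-193b carried the same seed, ACUGGCC, and no other miRNA in the RefSeq table carried it. Over the 19 bases compared, 18 were identical and the substitution was U9C, counted from the 5′ end of miR-193a-3p with the miR-193a base first. The 5p arms of the same hairpins were less alike, with different seeds. With miR-193b-5p shifted by 1 base toward the 3′ end of miR-193a-5p, 14 of 18 bases were identical. The seeds of miR-365-5p, AGGGACU, and of miR-365-3p, AAUGCCC, were found in no other miRNA of the table. The 5p arms were rich in G, at 47.1% of bases in miR-365-5p, 40.9% in miR-193a-5p and 55.6% in miR-193b-5p, whereas the 3p arms held 4.55%, 18.2% and 15.8%.

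The hairpins show how the arms sit, with both mature arms in capitals. All 3 lie on the plus strand of chromosome 10 of GRCr8, at chr10:65170317-65170402 for miR-193a, chr10:65184217-65184302 for miR-365 and chr10:1824944-1825026 for miR-193b. The reads themselves had been aligned to rn6, whose coordinates were not analysed here.
miR-193a: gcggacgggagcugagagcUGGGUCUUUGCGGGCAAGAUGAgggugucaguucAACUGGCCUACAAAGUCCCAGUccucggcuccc
miR-365: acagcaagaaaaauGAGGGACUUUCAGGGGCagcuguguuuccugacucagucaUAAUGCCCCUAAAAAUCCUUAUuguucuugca
miR-193b: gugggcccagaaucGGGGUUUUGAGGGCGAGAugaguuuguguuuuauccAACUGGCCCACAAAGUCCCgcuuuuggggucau

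On GRCr8 the gene of miR-193a (Mir193) and that of miR-365 (Mir365b) follow each other with 0 genes lying wholly between them, and both lie within the bounds of the protein-coding gene Faul2. Mir193b lies apart, inside the long noncoding RNA gene LOC102547286 and between the protein-coding genes Mrtfb and Parn. The table held 1 gene named for miR-365, while mouse and human also have one beside miR-193b with the same 3p arm. How reads that align to several places were counted is not given in the sources used here, so the counts of miR-365-3p cannot be assigned to a locus. On the opposite strand of miR-193a lies miR-3549, which was listed at 0 in each of the 8 libraries.

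Total counts ranged from 12929302 to 27632443 per library. METH rat 4 stood apart from the other libraries. It lay at -21.5 on the first principal component against -2.83 to 7.29 in the other 7, and it was the lowest of the 8 rats for 34.7% of tested miRNAs and the highest for 30.4%.

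The members spanned a wide range of levels, given as CPM, counts scaled to each library's total after TMM (trimmed mean of M-values) adjustment. A read spans a whole mature miRNA, so CPM was not divided by length, and how well each sequence is ligated was not measured. Nearly all member counts, 97.6%, belonged to miR-193b-3p. It had 570 ± 338 CPM (SD, n = 8) and ranked 94th of the 507 tested miRNAs, whereas the other 5 ranked 380th or lower. Their means over 8 rats were 5.28 ± 1.22 CPM for miR-193b-5p, 3.39 ± 1.84 for miR-365-3p, 2.35 ± 1.04 for miR-193a-3p, 2.30 ± 1.21 for miR-193a-5p and 0.893 ± 0.638 for miR-365-5p (SD, n = 8).

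The order of levels was tested within rats, pooled over both groups, by comparing neighbours in mean log2 CPM and the arms of each hairpin in 6 comparisons. The difference of miR-193b-3p over miR-193b-5p was 6.56 ± 0.93 log2 units (SD) and was seen in 8 of 8 rats, at the smallest p that the two-sided exact sign-flip test allows (p = 0.00781, adjusted p = 0.0469). The remaining 5 comparisons did not pass. They included miR-365-3p over miR-365-5p, at 1.85 ± 1.56 log2 units (SD) and 7 of 8 rats (exact sign-flip test, adjusted p = 0.0703), with METH rat 4 as the exception. Without METH rat 4 the order was formed again, so the 6 comparisons were not all the same pairs. Of these, 3 passed, and miR-365-3p exceeded miR-365-5p by 2.27 ± 1.10 log2 units (SD) in 7 of 7 rats (exact sign-flip test, adjusted p = 0.0312). With any other single rat left out, 0 of 6 passed. The arms of miR-193a differed by 0.013 ± 1.01 log2 units (SD), and neither was higher in most of the rats, since miR-193a-5p led in 3, miR-193a-3p in 4 and both had 50 counts in saline rat 1. Their order turned with single rats, and without METH rat 4 miR-193a-3p was the higher by 0.24 ± 0.76 log2 units (SD, n = 7).

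Because of this order, the seed shared by the miR-193 3p arms was read almost wholly from miR-193b-3p. In single libraries miR-193b-3p supplied between 99.0% and 99.8% of the counts with that seed. The summed level of both arms averaged 739 ± 406 CPM over saline rats and 406 ± 169 CPM over METH rats (SD, n = 4 each).

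**Figure D1:**
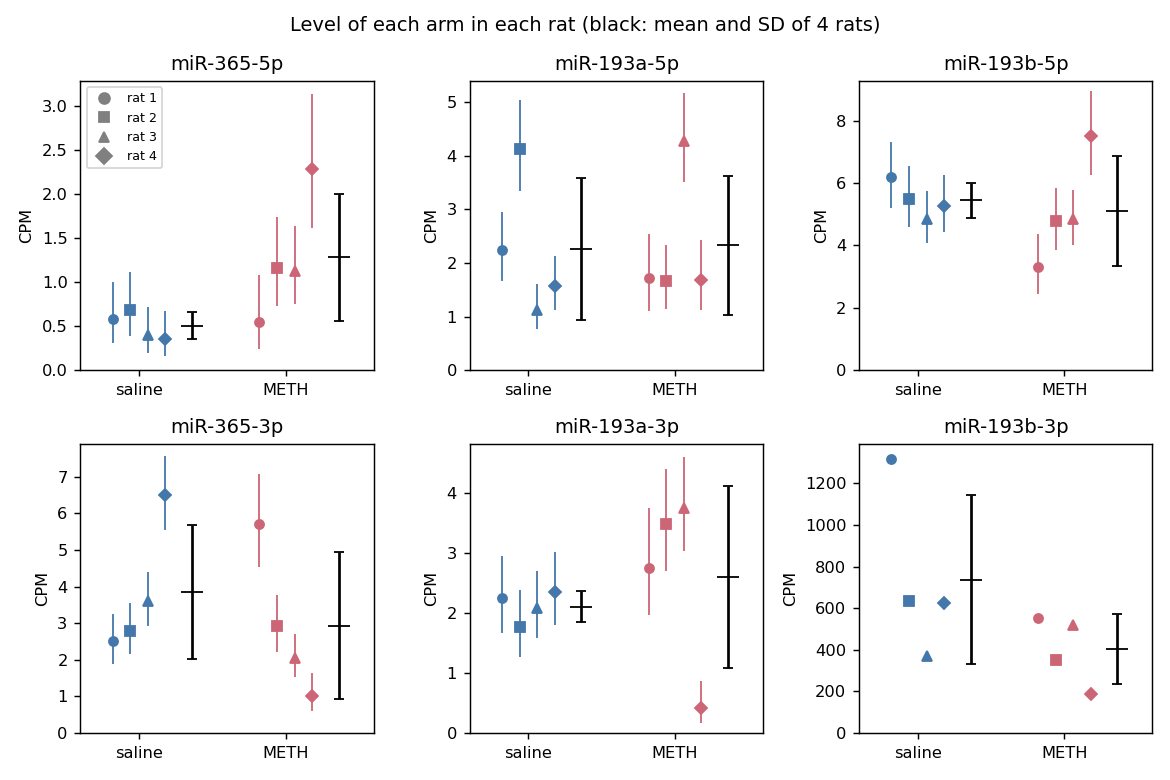
Level of each of the 6 arms in CPM (linear axis from 0) in the 4 saline and 4 METH rats. Marker shape gives the rat number, thin bars are 95% exact Poisson intervals of counting error (too small to see for miR-193b-3p), and black bars are the group mean and SD; METH rats 2, 3 and 4 lie above every saline rat only for miR-365-5p, while METH rat 4 is the lowest rat for all 3 of the 3p arms.

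The first comparison was miR-365-5p, the passenger arm of miR-365, between the groups. Its counts were 13, 16, 11 and 9 in saline rats 1 to 4 and 8, 23, 28 and 38 in METH rats 1 to 4. In CPM these were 0.583, 0.687, 0.401 and 0.352 in the saline rats and 0.549, 1.16, 1.13 and 2.28 in the METH rats. METH rat 1 lay within the saline range and the other 3 METH rats lay above it, so the groups overlapped.

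The group levels of miR-365-5p were 0.506 ± 0.156 CPM (SD, n = 4) in saline and 1.28 ± 0.724 CPM (SD, n = 4) in METH, a fitted log2 fold change of 1.34 ± 0.44 (SE). The counts were few, and the 95% exact Poisson interval for METH rat 4 was 1.61 to 3.13 CPM against 0.392 to 1.11 CPM for the highest saline rat, saline rat 2. The intervals of METH rats 2 and 3 began at 0.734 and 0.751 CPM and overlapped that of saline rat 2. These intervals cover counting error only, and whether reads copied by PCR had been merged is not given in the sources used here. Without METH rat 4 the log2 fold change was 0.94, and without METH rat 1 it was 1.58.

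The other arm printed in the miR-365 hairpin, the guide miR-365-3p, was measured next. Arms of 1 hairpin come from 1 transcript, but these 3p counts cannot be assigned to a locus. Its counts were 56, 65, 99 and 166 in the saline rats and 83, 58, 51 and 17 in the METH rats. The levels were 2.51, 2.79, 3.61 and 6.49 CPM in the saline rats and 5.70, 2.92, 2.06 and 1.02 CPM in the METH rats. METH rats 3 and 4 lay below every saline rat, while METH rat 1 was the highest METH rat and lay above 3 saline rats. The 95% exact Poisson interval of METH rat 3, 1.53 to 2.71 CPM, overlapped that of saline rat 1, 1.90 to 3.26 CPM. That of METH rat 4, 0.595 to 1.63 CPM, did not.

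The fitted log2 fold change of miR-365-3p was -0.41 ± 0.51 (SE), from 3.85 ± 1.82 CPM (SD, n = 4) in saline to 2.92 ± 2.01 CPM (SD, n = 4) in METH. The groups thus differed by less than 1 SD of either group. The sign of the change was opposite to that of miR-365-5p. The value depended on single rats, at -0.029 without saline rat 4, -0.12 without METH rat 4 and -0.94 without METH rat 1.

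The gene next to miR-365 gave miR-193a. Its 3p arm, miR-193a-3p, had 50, 41, 57 and 60 counts in the saline rats and 40, 69, 93 and 7 in the METH rats. The corresponding levels were 2.24, 1.76, 2.08 and 2.35 CPM and 2.75, 3.47, 3.75 and 0.420 CPM. Of the METH rats, 3 lay above every saline rat and METH rat 4 lay below every saline rat.

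For miR-193a-3p the fitted log2 fold change was 0.31 ± 0.51 (SE). It was 0.66 without METH rat 4 and 0.067 without METH rat 3. The METH rats above saline were rats 1, 2 and 3 for miR-193a-3p and rats 2, 3 and 4 for miR-365-5p.

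The other arm, miR-193a-5p, had 50, 96, 31 and 40 counts in the saline rats and 25, 33, 106 and 28 in the METH rats. Saline rat 2, at 4.12 CPM, and METH rat 3, at 4.28 CPM, were high, and the other 6 rats lay between 1.13 and 2.24 CPM. The log2 fold change was 0.060 ± 0.48 (SE), and it took either sign when single rats were left out, at -0.43 when METH rat 3 was left out, 0.52 when saline rat 2 was and 0.20 when METH rat 4 was.

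The separate locus gave miR-193b-3p, the abundant member and a likely guide. Its counts were 29393, 14786, 10198 and 15965 in the saline rats and 8052, 6947, 12902 and 3155 in the METH rats. These corresponded to 1318, 634, 372 and 624 CPM in saline and 553, 350, 521 and 189 CPM in METH. Saline rat 1 was the highest of the 8, METH rats 2 and 4 lay below every saline rat, and METH rats 1 and 3 lay within the saline range.

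For miR-193b-3p the group means were 737 ± 406 CPM (SD, n = 4) in saline and 403 ± 168 CPM (SD, n = 4) in METH. The fitted log2 fold change was -0.87 ± 0.43 (SE), opposite in sign to that of miR-365-5p, and 3.75% of tested miRNAs had a lower one. It was -0.39 without saline rat 1 and -0.65 without METH rat 4. Its counting error was small at this depth, with a 95% exact Poisson interval of 183 to 196 CPM in METH rat 4, the rat with the fewest counts.

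Its passenger arm, miR-193b-5p, had the smallest saline SD relative to its mean. On 48 to 138 counts per library, its levels were 6.19, 5.49, 4.85 and 5.28 CPM in the saline rats and 3.30, 4.78, 4.84 and 7.51 CPM in the METH rats. METH rat 4 was the highest of all 8 rats, and METH rats 1, 2 and 3 lay below every saline rat. The 95% exact Poisson intervals of METH rats 1, 2 and 3 reached 4.37, 5.84 and 5.79 CPM and overlapped that of saline rat 3, 4.06 to 5.75 CPM. That of METH rat 4, 6.25 to 8.94 CPM, overlapped that of saline rat 1, 5.20 to 7.31 CPM. The log2 fold change was -0.093 ± 0.30 (SE). It was -0.33 without METH rat 4, 0.065 without METH rat 1 and 0.015 without saline rat 1.

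**Figure D2:**
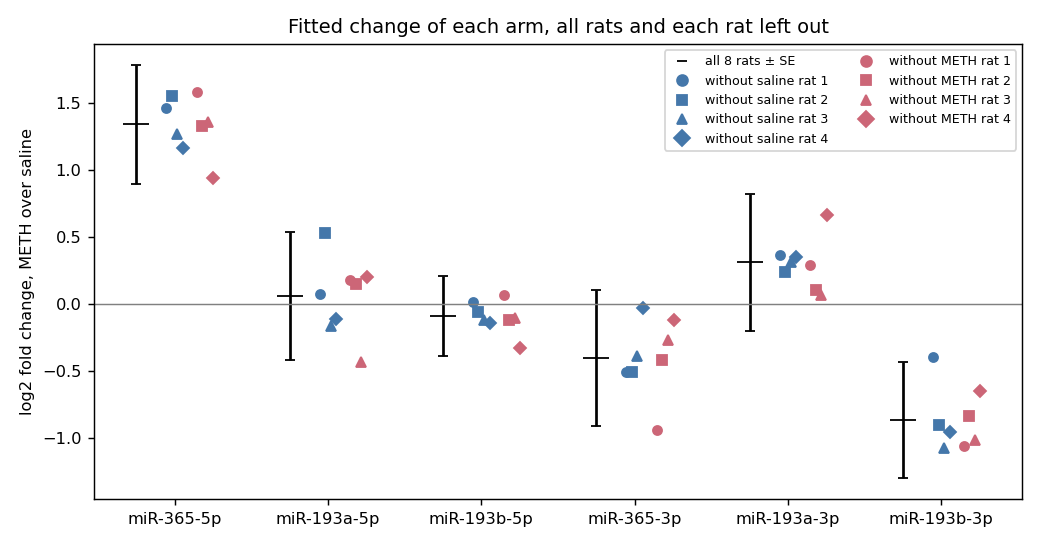
Fitted log2 fold change (METH over saline) of each arm with all 8 rats (black, ± SE) and with each rat left out (coloured markers, shape by rat number). For miR-365-5p the values lie between 0.94 and 1.58, miR-193b-3p and miR-365-3p stay below 0, miR-193a-3p stays above 0, and miR-193a-5p and miR-193b-5p cross 0.

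In this comparison the quasi-likelihood test of edgeR gave an adjusted p under 0.05 for 0 of 6 members, where the share over all 507 tested miRNAs was 0%. At an unadjusted p under 0.05 there was 1 member, miR-365-5p, beside 5.52% of all tested, or 28 miRNAs. That member was chosen for this value, so nothing is read from the count. With the Wald test of DESeq2 8 miRNAs passed the adjusted threshold, of which 0 were members. Every METH rat lay above every saline rat for 0 members, beside 1.78% of tested miRNAs, and below for 0 members, beside 1.38%, which makes 3.16% in either direction. A fitted change past 1.5-fold was seen for 1 member above saline, miR-365-5p, beside 8.28% of tested miRNAs, and for 1 below, miR-193b-3p, beside 8.48%.

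Of the 5 partners, 2 had a fitted value above 0 and 3 below, from -0.87 to 0.31. The median of the partners was -0.093, and that over all tested miRNAs was -0.023. All 5 partners lay closer to 0 than miR-365-5p did. Of the arms taken as guides, miR-365-3p and miR-193b-3p lay on the other side of 0 and miR-193a-3p on the same side. For miR-365-3p the value was within 1 SE of 0, at -0.41 ± 0.51 (SE).

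Arm balance was then expressed as the share of a hairpin's counts on the 3p arm. Library scaling cancels in this ratio. The miR-365-3p counts cannot be assigned to a locus, so the miR-365 share may include 3p counts from another one. For miR-365 the 3p share was 81.2%, 80.2%, 90.0% and 94.9% in saline rats 1 to 4 and 91.2%, 71.6%, 64.6% and 30.9% in METH rats 1 to 4. METH rats 2, 3 and 4 lay below every saline rat and METH rat 1 lay within the saline range. METH rat 4 was the only rat with more 5p than 3p counts, at a 95% exact Clopper-Pearson interval of 19.1% to 44.8% for the 3p share over 55 counts.

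The mean 3p share of miR-365 was 86.6 ± 7.06% (SD, n = 4) in saline and 64.6 ± 25.1% (SD, n = 4) in METH, a difference of -22.0 percentage points. Without METH rat 4 the difference was -10.8 percentage points, with a METH mean of 75.8 ± 13.8% (SD, n = 3). The difference includes the miR-365-5p values that chose the members, so it is not tested.

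For miR-193b the 3p share was 99.1 ± 0.34% (SD, n = 4) in saline and 98.3 ± 1.46% (SD, n = 4) in METH. METH rat 4, at 96.2%, was below the other 7 rats, which lay between 98.7% and 99.5%. The difference between groups was -0.81 percentage points, and -0.092 without METH rat 4, with a METH mean of 99.0 ± 0.38% (SD, n = 3). For miR-193a neither arm dominated, at 51.2 ± 15.4% (SD, n = 4) in saline and 49.0 ± 21.2% (SD, n = 4) in METH. Saline rat 2 had 29.9% of 137 counts on the 3p arm and METH rat 4 had 7 of 35, and the other 6 rats lay between 46.7% and 67.6%. The direction of the miR-193a difference was not stable. It was -2.20 percentage points over all rats, 7.46 without METH rat 4, where the METH mean was 58.6 ± 10.8% (SD, n = 3), and 3.18 from counts summed over the rats of a group. It was also above 0 without saline rat 3, at 2.34, and without saline rat 4, at 0.75.

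**Figure D3:**
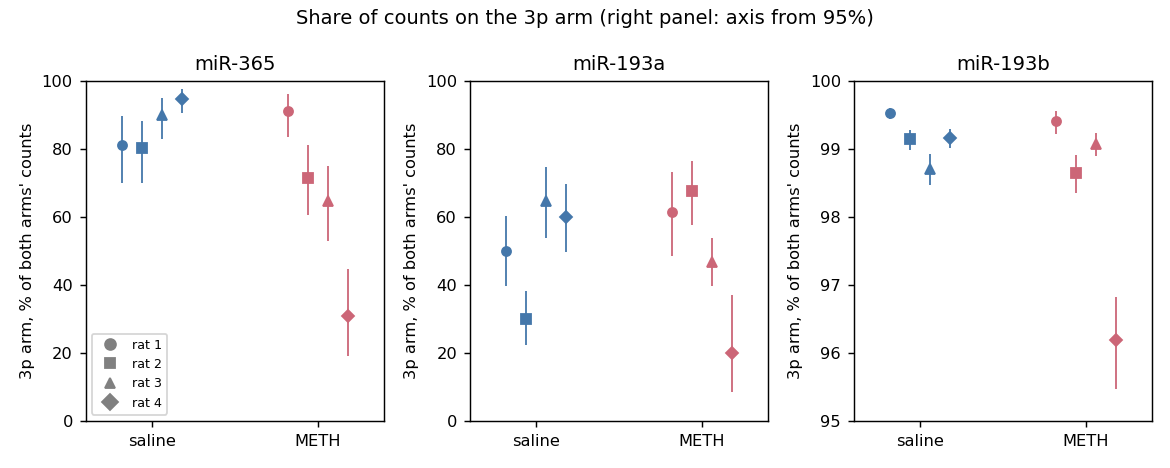
Percent of each hairpin's counts on the 3p arm in the 4 saline and 4 METH rats, with 95% exact Clopper-Pearson intervals of counting error; the axis of the miR-193b panel starts at 95%. The miR-365-3p counts cannot be assigned to a locus. METH rat 4 has the lowest share of the 8 rats in each panel, at 30.9% for miR-365, 7 of 35 counts for miR-193a and 96.2% for miR-193b.

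METH rat 4 had the lowest 3p share of the 8 rats for all 3 hairpins. Over the 174 precursors with both arms past the filter, it had the lowest ratio of 3p to 5p for 68 precursors (39.1%) and the highest for 45 (25.9%). Here the log2 ratio was the difference between the log2 CPM of the arms, whose prior count of 2 shrinks ratios at few counts. The log2 ratio of 3p to 5p in METH rat 4 minus the mean of the other 7 rats was -3.36 for miR-365, -2.20 for miR-193b and -2.03 for miR-193a, beside a median of -0.44 over all 174 precursors. A lower value than that of miR-365 was seen for 1 precursor, than miR-193b for 16 and than miR-193a for 21. The part of this library in the shares was not tested.

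Between groups, the log2 ratio of 3p to 5p for miR-365 had a mean of 2.66 in saline and 1.04 in METH, a difference of -1.62. Of the 174 precursors, 0 had a lower difference, as follows in part from the choice of miR-365-5p. Without METH rat 4 the difference was -0.91, and 2 precursors were lower. For miR-193b the difference was -0.69 with 16 precursors lower, and -0.16 without METH rat 4. The difference for miR-193a was -0.13, and 0.45 without METH rat 4.

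**Figure D4:**
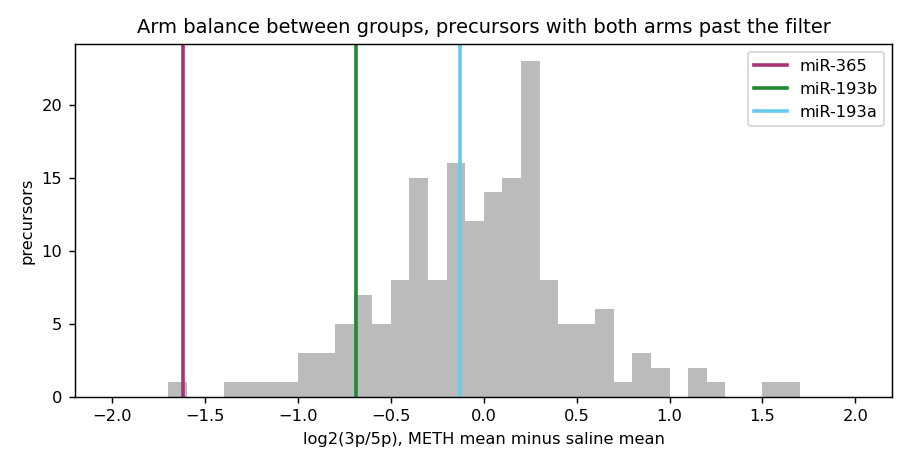
Histogram of the METH mean minus the saline mean of log2(3p/5p) over the 174 precursors with both arms past the filter (bins of 0.1), with vertical lines at the 3 hairpins. The line for miR-365 is at -1.62, that for miR-193b at -0.69 and that for miR-193a at -0.13, beside a median of 7.8e-05.

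Whether the members followed each other among rats of 1 group was asked after each group's mean was subtracted, which removes the contrast used to choose them. Correlations of log2 CPM were computed for 15 pairs over 8 rats, with a permutation test in which rats were exchanged only within their group. The lowest correlation was that of the miR-365 arms with each other, where the 3p counts cannot be assigned to a locus. For miR-365-5p and miR-365-3p, r was -0.945 (permutation p = 0.0139, adjusted p = 0.191) and Spearman's rho was -0.905 (permutation p = 0.0208, adjusted p = 0.139). In 6 of 8 rats the arms lay on opposite sides of their group means, and in METH rats 2 and 3 miR-365-5p was within 0.02 log2 units of its mean.

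The highest correlation joined the miR-365 and miR-193b passenger arms. For miR-365-5p and miR-193b-5p, r was 0.935 (permutation p = 0.0382, adjusted p = 0.191) and rho was 0.929 (permutation p = 0.0278, adjusted p = 0.139). Without METH rat 4 alone, r was -0.894 for miR-365-3p and 0.858 for miR-193b-5p. The 2 rats farthest from the median deviation in miR-365-5p were METH rats 1 and 4, at opposite ends, and without both r was -0.802 and 0.612 over 6 rats (permutation p = 0.167 and 0.458). Leaving out both rats also leaves fewer orders to permute, and a smaller r and fewer rats cannot be told apart in these p-values. Of the 15 pairs, 0 passed an adjusted p of 0.05 under this permutation test, and 3 had an unadjusted p under 0.05, the third being miR-365-3p with miR-193b-5p at r = -0.881 (permutation p = 0.0365, adjusted p = 0.191; rho = -0.929, permutation p = 0.0139, adjusted p = 0.139). For this pair r was -0.764 without METH rat 4 and -0.507 without METH rats 1 and 4 (permutation p = 0.438), which were also the farthest in miR-365-3p.

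The genomic neighbours, the arms of miR-193a, gave values that moved with the rats kept. For miR-365-5p, r was 0.281 with miR-193a-5p (permutation p = 0.474, adjusted p = 0.549; rho = 0.405, permutation p = 0.302, adjusted p = 0.440). It was 0.663 without METH rat 4, 0.707 without METH rats 1 and 4, and 0.205 without the 2 farthest rats in miR-193a-5p, saline rat 2 and METH rat 3. With miR-193a-3p, r was -0.691 (permutation p = 0.345, adjusted p = 0.549; rho = -0.571, permutation p = 0.181, adjusted p = 0.440). It was 0.223 without METH rat 4, -0.690 without METH rats 1 and 4, and 0.051 without METH rats 3 and 4, the farthest in miR-193a-3p, so neither its size nor its sign was settled by these rats. For the guide miR-193b-3p, r with miR-365-5p was -0.394 (permutation p = 0.384, adjusted p = 0.549; rho = -0.190, permutation p = 0.677, adjusted p = 0.846) at 8 rats, 0.122 without METH rat 4 and 0.457 without METH rats 1 and 4. The arms of miR-193b had r = -0.386 (permutation p = 0.422, adjusted p = 0.549; rho = -0.048, permutation p = 0.948, adjusted p = 0.948). The sign turned without METH rat 4, at r = 0.274, and not without METH rat 1, at r = -0.177. Without both, the farthest in miR-193b-5p, r was 0.958 over 6 rats (permutation p = 0.0208, adjusted p = 0.312).

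**Figure D5:**
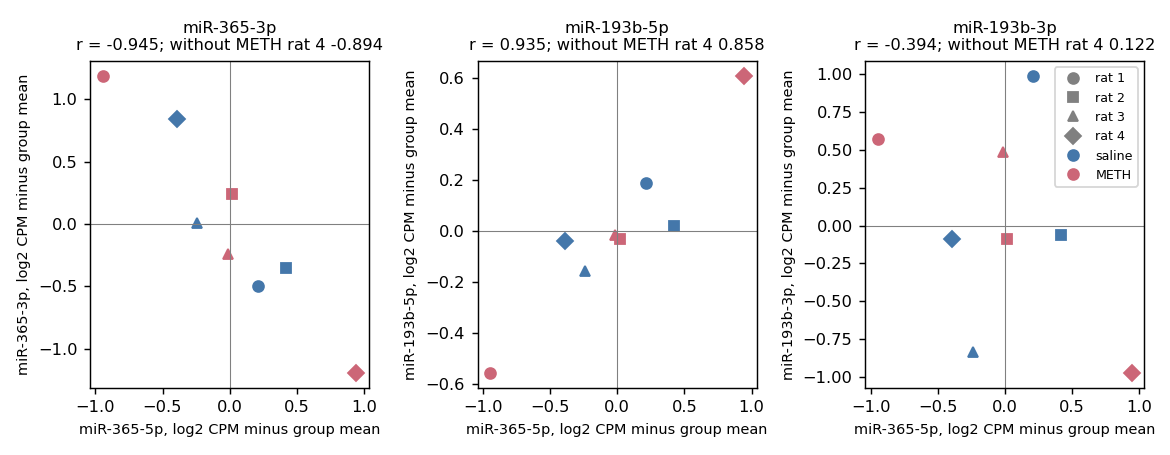
Deviation of log2 CPM from the group mean in each of the 8 rats for miR-365-3p, miR-193b-5p and miR-193b-3p (vertical axes) against miR-365-5p (horizontal axes); colour gives the group and shape the rat number. Points fall along a descending line for miR-365-3p (r = -0.945), a rising line for miR-193b-5p (r = 0.935) and no line for miR-193b-3p (r = -0.394).

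The same measure, as a description over 8 rats that share these libraries, ranked all 506 other tested miRNAs by their likeness to each member. For miR-365-5p the most alike outside the members were miR-15b-5p (r = 0.959), miR-1188-5p (r = 0.936) and miR-139-5p (r = 0.932). Among all 506, miR-193b-5p came 3rd and miR-365-3p came 500th. For miR-365-3p the most alike were miR-874-3p (r = 0.962), miR-29b-3p (r = 0.952) and miR-325-3p (r = 0.948), and miR-365-5p came 505th. Likeness to miR-193b-5p was highest for miR-490-5p (r = 0.977), miR-15b-5p (r = 0.976) and miR-485-5p (r = 0.975), and miR-365-5p came 16th. The r of these 9 pairs without METH rat 4 lay between 0.891 and 0.942, miR-193b-5p came 19th and miR-365-3p 497th for miR-365-5p, and miR-365-5p came 33rd for miR-193b-5p.

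The 3p arms that share a seed were not among each other's nearest. For miR-193b-3p the most alike were miR-212-5p (r = 0.937), miR-485-3p (r = 0.895) and miR-484 (r = 0.866), and miR-193a-3p came 38th at r = 0.625. It came 224th without METH rat 4, at r = 0.063. For miR-193a-3p they were miR-133a-3p (r = 0.988), miR-16-5p (r = 0.980) and miR-505-3p (r = 0.980), and for miR-193a-5p miR-673-5p (r = 0.917), miR-378a-3p (r = 0.905) and miR-338-5p (r = 0.898). The likeness of miR-193a-3p rested on METH rat 4, without which r was 0.697 for miR-133a-3p, 0.708 for miR-16-5p and 0.380 for miR-505-3p. The arms of miR-193a were at r = 0.204 with each other, and at -0.059 without METH rat 4.

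METH rat 4 was also set against the other METH rats. Its log2 CPM minus the mean of METH rats 1 to 3 was -2.73 for miR-193a-3p, -1.59 for miR-365-3p, -1.30 for miR-193b-3p, -0.44 for miR-193a-5p, 0.81 for miR-193b-5p and 1.26 for miR-365-5p, beside a median of -0.15 over all 507. The value of miR-193a-3p was the 7th lowest of 507. Over the 465 tested miRNAs with a RefSeq sequence (91.7%), this difference had a Pearson r of 0.186 with the percent of G, -0.048 with the percent of G and C, and 0.168 with the mean log2 CPM of the other 7 rats, across miRNAs that are not independent replicates and all come from the same libraries. Its part in the members' values was not tested.

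Marker miRNAs of other cells were also compared. For smooth muscle and mesenchyme every METH rat lay above every saline rat in summed level (2600 to 3369 CPM against 2214 to 2472). Most of that sum was miR-143-3p, at 2137 CPM in saline and 2798 CPM in METH. Every METH rat also lay above saline for the epithelial miR-183 and miR-200 miRNAs (104 to 2350 against 26.7 to 62.8). In METH rat 4 the summed level was above the saline range for erythrocyte miRNAs (2817 CPM against 403 to 644), choroid plexus and cilia (7132 against 2804 to 3580), oligodendrocyte (4492 against 2897 to 3191), endothelium (10700 against 8361 to 8815) and skeletal muscle (115 against 50.1 to 70.1), where the other METH rats were lower than it. It had the highest METH level for smooth muscle and mesenchyme but not for the epithelial miRNAs, at 321 CPM. It was below the saline range for leukocyte miRNAs (693 against 1082 to 2099) and within it for neuronal miRNAs (357842 against 294503 to 493426). These sums weigh abundant miRNAs most. For endothelium miR-126a-3p had 8157 CPM in saline and 8884 CPM in METH, while miR-126a-5p had a log2 fold change of -0.49 ± 0.30 (SE). The most abundant oligodendrocyte miRNA, miR-219a-2-3p, had a log2 fold change of 0.35, against a list median of -0.17. For leukocyte miR-150-5p had 1374 and 1348 CPM, while miR-223-3p had a log2 fold change of 0.97 ± 0.46 (SE). In bulk tissue, fewer cells of a type and less RNA per cell cannot be told apart, and the part of these cells in the members' values was not tested.

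As a check for neural tissue, which cannot single out the striatum, miR-124-3p, a neuronal miRNA, had a mean of 238674 CPM in saline and 217886 CPM in METH. Of 50 miRNAs in 10 lists, 49 were in the table, 48 were tested and 0 had an adjusted p under 0.05 by edgeR. Each list miRNA in the table had a count in at least 1 library. Median log2 fold changes were 0.0072 for neuron (6 tested), -0.17 for oligodendrocyte (3), 0.65 for erythrocyte (2), -0.030 for leukocyte (5), -0.18 for endothelium (2), 0.53 for smooth muscle and mesenchyme (6), 0.10 for skeletal muscle (4), 0.35 for choroid plexus and cilia (5) and 3.94 for epithelium (8), beside -0.023 over all tested.

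The miRNAs linked to brown fat differentiation, where miR-193b and miR-365 are best known, had a median of 0.048 with 10 of 10 tested and 0 passing. The most abundant of them and also the one with the largest absolute change was miR-27b-3p, a miRNA described as holding back brown fat genes, at 2458 CPM in saline and 3481 CPM in METH, a log2 fold change of 0.50 ± 0.27 (SE). Summed over the list, the level was 4818 to 7304 CPM in the saline rats and 4691 to 8573 CPM in the METH rats, so the groups overlapped. The list was not divided by whether a miRNA promotes or holds back brown fat genes, so its median and sum give no direction.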

How the data were processed

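Per the study's methods and the submitters' processing notes, the authors trimmed adapters with cutadapt 1.18, aligned reads to rn6 with STAR 2.7.0e and counted them with featureCounts of Subread 1.6.4. The deposited values are raw counts per mature miRNA, with 1 column per rat. The library kit carried molecular identifiers. Merging of reads by molecular identifier, the miRNA annotation and the rule for reads with several alignments are not given in the sources used here.

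The members and lists were chosen with earlier results of these data known. Low-count miRNAs were removed with filterByExpr (minimum count 10), libraries were scaled by TMM, and METH was compared with saline over all 507 miRNAs by quasi-likelihood in edgeR 4.0.16 (R 4.3.3) and Benjamini-Hochberg adjustment. SEs were the absolute log2 fold change over the square root of F. Log2 CPM used a prior count of 2. Levels within rats used an exact sign-flip test (256 sign patterns), and correlations used all 576 orders within groups, in scipy 1.17.1. Each library is 1 rat, and rats are the replicates.

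The text names the 6 members, the 3 miRNAs most alike to each, and at most 2 examples per list. The scripts were tested on simulated data. Alternatives were 3 scalings, 2 filters, DESeq2 1.42.0, a robust fit, limma 3.58.1 voom, the rat number as a block, a prior count of 0.5 and leaving out each library. The correlations without METH rats 1 and 4 were chosen after seeing the data.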

Additional observations from a re-analysis of the deposited data

Results flagged for a closer look

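In 18 groups of 4 rats, formed by the 6 arms and the 3 arm shares in each treatment group, a rat lay far from the other 3 in 2 groups. Chance gives about 1 in 20. For miR-193a-5p METH rat 3 stood away from its group, at 2.13 log2 CPM, with a gap to the nearest rat of 0.965 of the range. For miR-193a-3p METH rat 4 did so, at -0.97 log2 CPM on 7 counts, with a gap of 0.850 of the range. Both gaps exceed Dixon's 95% limit for groups of 4.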

How the results depend on the processing

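At an adjusted p under 0.05, 0 miRNAs passed by edgeR quasi-likelihood and 8 by DESeq2, and the number ranged from 0 to 5 with 1 library left out, the 5 coming without METH rat 1. At an unadjusted p under 0.05 the settings gave 16 to 58 miRNAs. In each of these settings 0 members passed the adjusted threshold. For the 6 members' log2 fold changes, 52 values in other settings and 48 with a library left out moved by less than 1 SD between rats. The sign changed for miR-193a-5p (-0.10 with library totals, and with METH rat 3 or saline rats 3 or 4 left out) and for miR-193b-5p (with rat 1 of either group left out). With limma voom and quality weights miR-193b-3p was at -0.41, miR-193a-3p at 0.62 against 0.31 in the main fit, and miR-193a-5p at 0.35 against 0.060. Scaling by library totals put the median of all tested miRNAs at -0.12, against -0.023 with TMM. With at least 10 counts in every library, 4 members were left, and miR-365-5p and miR-193a-3p had no value. In the list miRNAs, calls ranged from 0 to 3 with 1 library left out, the 3 without METH rat 1.

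Comparisons of level that passed ranged from 0 to 3 with 1 library left out. With 7 rats the smallest sign-flip p is 0.0156, so a single comparison could not pass the adjustment over 6. The miR-365 arm share difference ranged from -30.9 without METH rat 1 to -10.8 percentage points without METH rat 4. Depth limits miR-365-5p, at 8 to 38 counts per library, and miR-193a-3p, with 7 counts in METH rat 4. The replicate block gave 0 calls, 1.23 for miR-365-5p and 0.069 for miR-193a-3p. Rats with the same number share only that number, and their deviations correlated at -0.34, -0.15, -0.15 and -0.36. Within-group correlations gave 0 of 15 pairs past the threshold in the settings tried. With 7 rats their smallest permutation p is 0.00694 and with 6 rats 0.0208, so a single pair could not pass the adjustment over 15 when a rat was left out.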
